A study of Mesocricetus auratus with 24 samples.

Results

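The genes of voltage-gated sodium and calcium channels were followed across 24 arrays of the inferior colliculus (IC), the midbrain auditory nucleus in which sound-triggered seizures begin. A gene was counted as a member when a probe set of the array carried its symbol alone and that symbol named a sodium channel subunit (Scn followed by a number and the letter a or b) or a calcium channel subunit (Cacna1, Cacna2d, Cacnb or Cacng). This gave 35 members among 19938 genes tested, 18 of them pore-forming subunits and 17 auxiliary subunits. The pore-forming members were 8 sodium channel alpha subunits, 4 calcium channel genes of the Cav1 family, 3 of the Cav2 family and 3 of the Cav3 family. The auxiliary members were 3 sodium channel beta subunits, 4 alpha2delta subunits, 3 calcium channel beta subunits and 7 gamma subunits. A further 5 hamster symbols of the same pattern were not analysed here.

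The hamsters came from the GASH/Sal strain, a genetic line with seizures evoked by loud sound, or were control Syrian hamsters, and all were 16 weeks old. Animals of each strain were either naïve or exposed to auditory stimulation, and each of these 4 groups held 6 arrays described as biological replicates. The IC of stimulated animals of both strains was taken 60 min after the sound, which was followed by seizures in GASH/Sal hamsters. Syrian hamsters received the same stimulation. Hamster RNA was hybridised to mouse probes. A log2 signal was therefore compared only with the log2 signal of the same probe set on other arrays, and the percentile of a gene's signal says how dim its probe set was, not how much channel RNA was present.

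The pore of each channel is a single large subunit, which in most of these channels opens when the membrane depolarises. Sodium channels carry the upstroke of the action potential. Calcium channels of the Cav2 family trigger transmitter release, those of the Cav1 family couple depolarisation to gene transcription, and those of the Cav3 family open near rest and support bursts. Auxiliary subunits set how many channels reach the membrane and how they gate. Most gamma subunits in the brain are known mainly as partners of AMPA-type glutamate receptors. Mutations in several of these genes, among them Scn1a, Scn2a, Scn8a, Cacna1a, Cacnb4 and Cacng2, cause seizures in mice or humans.

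Signals of neuronal genes were high on these arrays, with the 8 neuronal markers between percentiles 88.7 and 99.7 of all genes. The marker genes of the channels themselves, Scn1a and Cacna1a, lay at percentiles 90.8 and 90.9. Among the 4 genes of the IC and midbrain, Meis2 lay at percentile 98.8 and Otx2 at 40.7. Signals of 12 members were below the median of all genes, 7 of them pore-forming and 5 auxiliary. They included Scn9a, Scn10a and Scn11a, channels known mainly from peripheral nerve, and Scn7a, at percentiles from 7.80 to 29.1. The animals were named in the labels in 2 styles, called series A (replicates 1 to 3) and series B (replicates 4 to 6), and each series held 3 arrays of every group. The meaning of these styles is unknown here. A pair of arrays stood apart from the others of their group, naïve GASH/Sal 6 and stimulated Syrian 4, with root mean square deviations over all genes of 0.217 and 0.223 (log2) from the mean of their group and label series, against 0.158 for the next array. In this bulk tissue fewer cells of a type and less RNA per cell cannot be told apart.

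No channel gene passed the threshold of 0.05 after adjustment over all genes in any comparison of the study. For stimulated against naïve GASH/Sal hamsters, 0 of 35 members were called by limma beside 0% of all genes, and the counts were also 0 of 35 beside 0% for stimulated against naïve Syrian hamsters. Between the strains, 0 of 35 members were called beside 0% of all genes in naïve animals and 0 of 35 beside 0% in stimulated animals. The difference of the sound responses of the strains gave 0 of 35 beside 0%. Averaged over both strains, sound gave 0 of 35 members beside 0.00502% of all genes, which was 1 gene. Averaged over both sound conditions, strain gave 0 of 35 beside 0.0100%, which was 2 genes.

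At an unadjusted p under 0.05, the members were about as frequent as other genes. The counts were 1 of 35 beside 4.46% of all genes for sound in GASH/Sal hamsters, 3 of 35 beside 6.64% for sound in Syrian hamsters, 2 of 35 beside 6.02% for strain in naïve animals and 1 of 35 beside 5.42% for strain in stimulated animals. The difference of sound responses gave 1 of 35 beside 3.68%, sound averaged over strains 3 of 35 beside 7.39%, and strain averaged over sound 2 of 35 beside 7.99%. Such shares are 2.86%, 5.71% or 8.57% of the members and are no result about the channels.

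The estimated differences were small, from -0.31 to 0.46 (log2) over the members and the 4 comparisons between groups. The whole 95% interval lay within 1.5-fold in either direction for 34 of 35 members for sound in GASH/Sal hamsters, 35 for sound in Syrian hamsters, 35 for strain in naïve animals and 34 for strain in stimulated animals. The exception was Scn2a both times. Over the members the intervals reached from -0.58 to 0.65 (log2 difference) for sound in GASH/Sal hamsters and up to 0.85 for strain in stimulated animals. The members' standard errors in these 4 comparisons had a median of 0.0907 (log2).

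**Figure D1:**
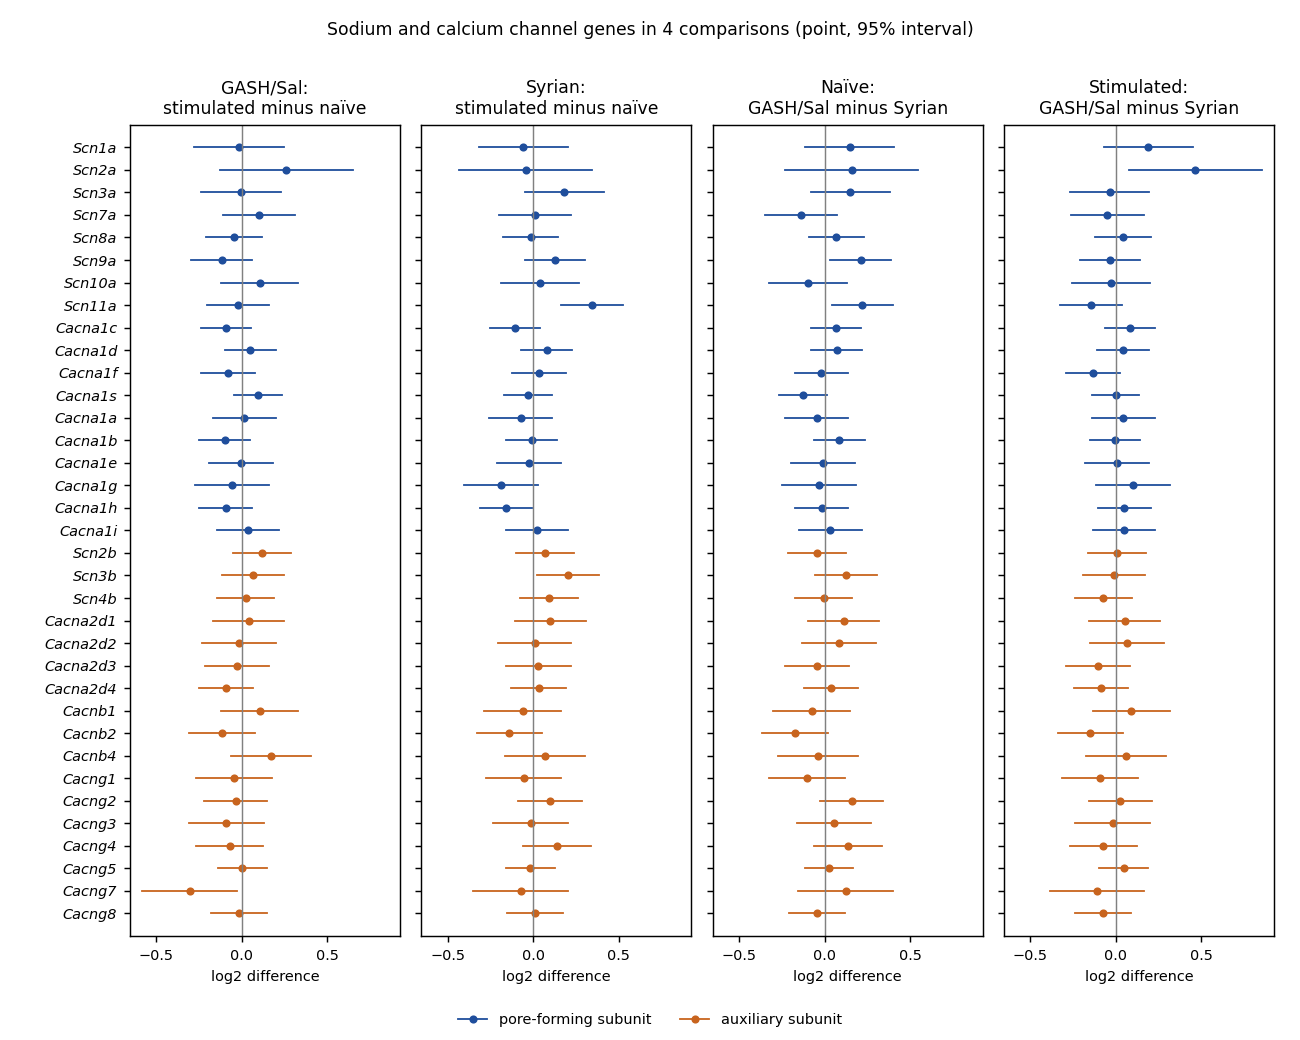
Each point is the log2 difference of 1 of the 35 channel genes in 1 of 4 comparisons, the line its 95% interval from limma, blue for pore-forming and orange for auxiliary subunits. Most points lie near 0, and the widest interval belongs to Scn2a, whose difference between stimulated GASH/Sal and stimulated Syrian hamsters was 0.46.

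The medians of pore-forming and of auxiliary subunits were all within 0.06 of 0. The median over all members crossed 0 under at least 1 alternative setting in each of the 7 comparisons, for example from -0.08 to 0.05 for sound in GASH/Sal hamsters. For strain in naïve animals the median over all members was 0.03, and -0.00455 without naïve GASH/Sal 6. For sound in GASH/Sal hamsters the median log2 difference was -0.01 over the 18 pore-forming and -0.02 over the 17 auxiliary members, beside 0.01 over all genes. For sound in Syrian hamsters the medians were -0.01 and 0.03, beside 0.02 over all genes. For strain they were 0.05 and 0.02 in naïve animals, beside -0.01 over all genes, and 0.02 and -0.02 in stimulated animals, beside -0.01. The difference of sound responses had medians of 0.02 over the pore-forming and -0.06 over the auxiliary members. These medians are descriptions and the contrast between the roles was not tested.

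Among the sodium channel alpha subunits, Scn11a, a channel best known from pain-sensing neurons, had the smallest p of all members. Its log2 signal in naïve Syrian hamsters had a lowest value of 3.42, a median of 3.54 and a highest value of 3.65. In stimulated Syrian hamsters these values were 3.67, 3.83 and 4.30. The groups did not overlap. Across sound in Syrian hamsters, 2 of 35 members did not overlap, Scn11a and Scn3b, beside 0.291% of all genes. The log2 difference was 0.34 (SE 0.0878), which is 1.27-fold, with limma's unadjusted p = 0.000482 and adjusted p = 0.576. It was 0.25 in series A, 0.44 in series B and 0.26 without the array stimulated Syrian 4, which held the highest value. The probe set lay at percentile 21.7 of signal.

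In GASH/Sal hamsters Scn11a differed little with sound. Its log2 signal had a lowest value of 3.62, a median of 3.74 and a highest value of 3.96 in naïve animals, and 3.58, 3.75 and 3.85 in stimulated animals, so that the groups overlapped along most of their range. The log2 difference was -0.02 (95% interval -0.20 to 0.16). The difference between the sound responses of the strains was -0.37 (SE 0.124, unadjusted p = 0.00607), which did not pass over all genes (adjusted p = 0.999955). Between naïve animals Scn11a was higher in GASH/Sal by 0.22 (SE 0.0878, unadjusted p = 0.0175, adjusted p = 0.764), with 6 of 6 arrays above the Syrian mean and a difference of 0.19 in series A and 0.25 in series B. Between stimulated animals the log2 difference was -0.15 (adjusted p = 0.901), but -0.06 without stimulated Syrian 4, 0.02 in series A and -0.31 in series B. These comparisons share groups: the low naïve Syrian arrays enter both the sound difference and the naïve strain difference.

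Signals of tissue markers were compared in the same groups, and none of these markers passed the test. The 4 genes of the IC and midbrain had a mean log2 difference of 0.19 for sound in Syrian hamsters and 0.11 for strain in naïve animals. These were the highest means of any set of markers. The other sets ran from -0.14 to 0.08 and from -0.16 to 0.06. For sound in GASH/Sal hamsters and strain in stimulated animals the IC and midbrain means were 0.06 and -0.01. The mean signal of these 4 genes ran from 5.79 to 5.95 in naïve Syrian and from 5.92 to 6.18 in stimulated Syrian arrays. It ran from 5.86 to 6.19 in naïve and from 5.93 to 6.18 in stimulated GASH/Sal arrays. For sound in Syrian hamsters Tfap2b, Otx2, Meis2 and Pax7 had log2 differences of 0.43, 0.20, 0.12 and -0.00696, and for strain in naïve animals 0.38, 0.11, -0.00819 and -0.04. All 4 encode transcription factors. Their part in the Scn11a values was not tested.

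Scn2a, which encodes the channel of excitatory axons, had the largest log2 difference of any member between the strains. In stimulated animals its log2 signal had a lowest value of 9.33, a median of 10.3 and a highest value of 10.4 in Syrian hamsters, and 10.3, 10.6 and 10.9 in GASH/Sal hamsters. The groups overlapped, and all 6 GASH/Sal arrays lay above the Syrian mean. The log2 difference was 0.46 (SE 0.190), which is 1.38-fold (unadjusted p = 0.0209, adjusted p = 0.896). It was 0.31 without stimulated Syrian 4, the array at 9.33, and 0.28 in series A against 0.65 in series B. In naïve animals the log2 signal ran from 9.93 to 10.3 with a median of 10.2 in Syrian hamsters, and from 9.23 to 11.1 with a median of 10.4 in GASH/Sal hamsters. The naïve GASH/Sal arrays thus held both the lowest and the highest of the 24 values. Their log2 difference was 0.16 (95% interval -0.23 to 0.55).

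The 2 lowest Scn2a values of all belonged to the 2 arrays that stood apart, naïve GASH/Sal 6 and stimulated Syrian 4. Averaged over sound, a comparison added after the data were seen, the strain difference of Scn2a was 0.31 (SE 0.134, unadjusted p = 0.0276, adjusted p = 0.601), and 0.34 without both of these arrays. It was 0.27 in series A and 0.35 in series B. The range over arrays left out in turn was 0.23 to 0.42.

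Scn2a was the member with the most probe sets, 14 in all, which the platform's annotation assigns to 1 gene and which are not replicates. Where they bind hamster RNA was not examined. In naïve animals 14 of 14 probe sets were higher in GASH/Sal hamsters, by 0.02 to 0.42 (log2) with a median of 0.20. In stimulated animals 12 of 14 were higher, from -0.04 to 0.46 with a median of 0.11. The mean over a gene's probe sets gave a strain difference in stimulated animals of 0.15, against 0.46 from the brightest probe set. Averaged over sound, all 14 were above 0, by 0.07 to 0.36, and 4 of the 14 had an unadjusted p under 0.05. The brightest was not among the 4 in this fit over all probe sets (SE 0.151, limma's unadjusted p = 0.0503). In the fit over genes, 7.99% of all genes had such a p for this comparison. No Scn2a probe set passed after adjustment over all probe sets in any comparison. The deviations of the brightest probe set from its group and series means correlated with those of the other 13 at 0.26 to 0.96 over the 24 arrays. This is a description, since all share arrays and a gene symbol.

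**Figure D2:**
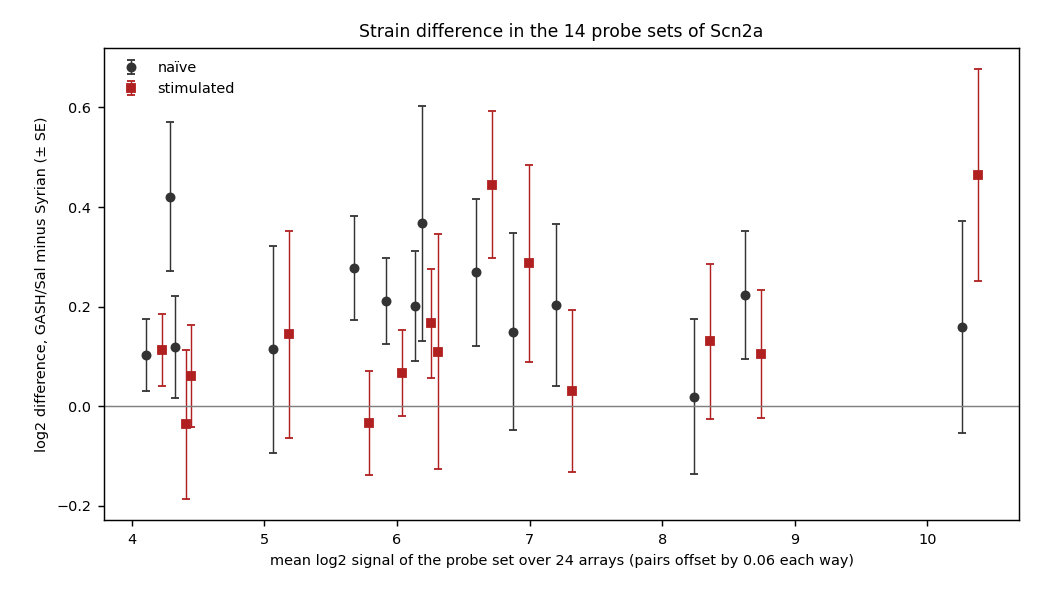
Each pair of symbols is 1 of the 14 probe sets of Scn2a, placed by its mean log2 signal over 24 arrays, with the log2 difference of GASH/Sal minus Syrian hamsters ± SE (limma fit over all probe sets) in naïve (circles) and stimulated (squares) animals. Circles all lie above 0, at 0.02 to 0.42, and 12 of 14 squares do.

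A further 3 probe sets carried several sodium channel symbols and were counted for no gene, because their signal cannot be assigned to 1 gene. The one shared by Scn3a and Scn1a differed between the strains by 0.14 averaged over sound (unadjusted p = 0.00394, adjusted p = 0.574 over all probe sets). The one shared by Scn2a, Scn9a and Scn3a differed by 0.46, and the one shared by Scn9a and Scn3a by 0.19, with adjusted p of 0.681 and 0.754. All 3 were higher in GASH/Sal hamsters on average, and none passed.

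Scn1a, the channel of fast-spiking inhibitory neurons, had a mean log2 signal of 6.66 ± 0.168 (SD, n = 6) in naïve Syrian, 6.61 ± 0.162 in stimulated Syrian, 6.81 ± 0.385 in naïve GASH/Sal and 6.79 ± 0.199 in stimulated GASH/Sal hamsters. Its strain difference was 0.15 in naïve and 0.19 in stimulated animals, with 95% intervals of -0.11 to 0.41 and -0.07 to 0.45. With sound it differed by -0.02 and -0.06 in GASH/Sal and Syrian hamsters. Scn8a, the channel of the axon initial segment and nodes, lay at 5.74 ± 0.113, 5.72 ± 0.217, 5.81 ± 0.185 and 5.76 ± 0.112 in the same order of groups, with log2 differences between -0.04 and 0.07. Scn3a, the isoform of the developing brain, lay at 4.26 ± 0.223, 4.44 ± 0.193, 4.41 ± 0.362 and 4.41 ± 0.160, and differed most for sound in Syrian hamsters, by 0.18.

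Scn9a, a channel of peripheral sensory and sympathetic neurons, was the second member of the naïve strain comparison. Its log2 signal had a lowest value of 3.77, a median of 4.01 and a highest value of 4.12 in naïve Syrian hamsters, and 4.05, 4.17 and 4.30 in naïve GASH/Sal hamsters. The groups overlapped between 4.05 and 4.12. They differed by 0.21 (SE 0.0869, unadjusted p = 0.0216, adjusted p = 0.785), with 0.24 in series A and 0.18 in series B. Its other, dimmer probe set did not follow, at -0.01, so that the mean of both was 0.10. In stimulated animals the difference was -0.03. Scn7a, a sodium-sensing relative expressed in glia, and Scn10a, another channel of sensory neurons, differed by no more than 0.14 in size in any of the 4 comparisons between groups.

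**Figure D3:**
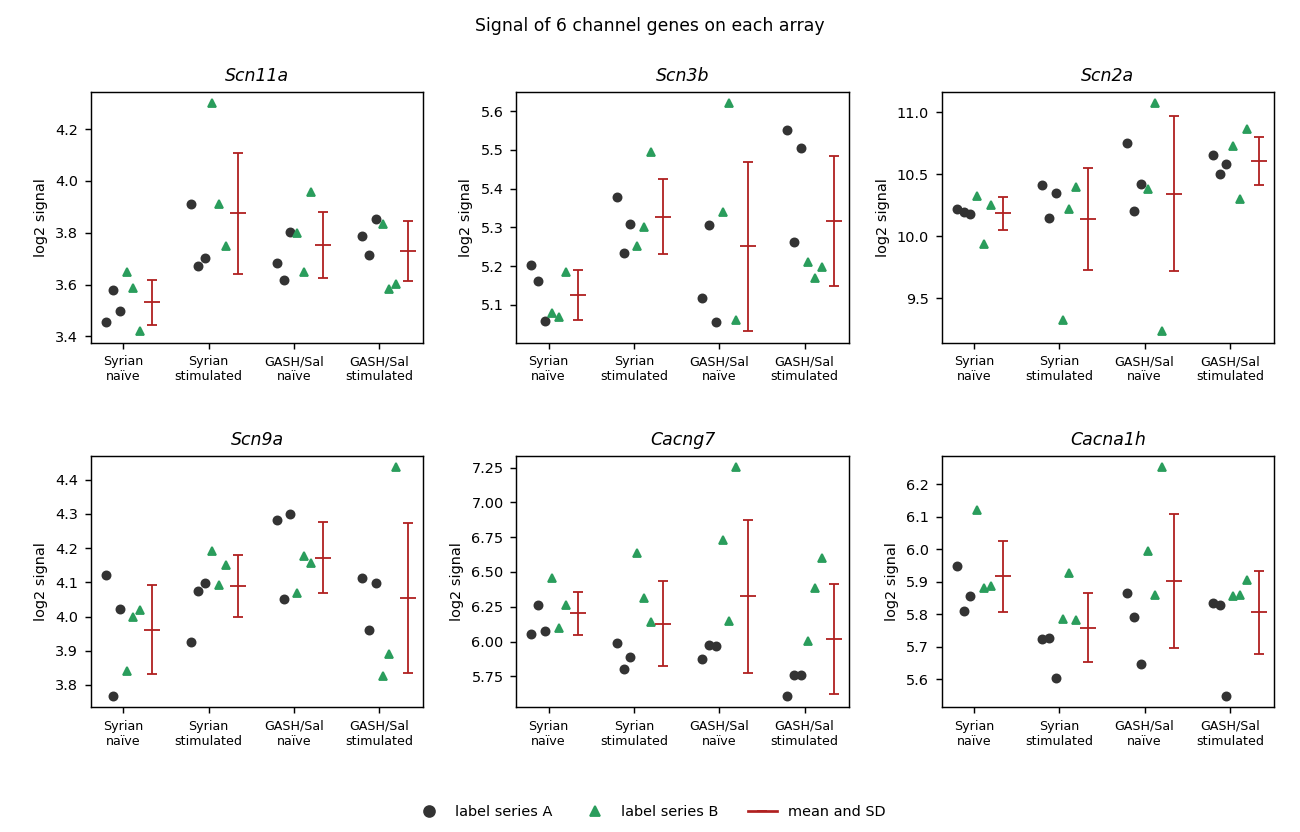
Log2 signal of 6 channel genes on each of 24 arrays by group, with circles for label series A, triangles for series B and the mean with its SD (n = 6) in red. Scn11a and Scn3b do not overlap between naïve and stimulated Syrian hamsters, the lowest Scn2a values (9.23 and 9.33) come from 1 naïve GASH/Sal and 1 stimulated Syrian array, and Cacng7 lies higher in series B.

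In the Cav1 family, the L-type channels of neurons and muscle, the most different members between the strains were the dim ones. Cacna1s, the channel of skeletal muscle, had a lowest log2 signal of 4.36, a median of 4.53 and a highest of 4.63 in naïve Syrian hamsters, and 4.28, 4.38 and 4.56 in naïve GASH/Sal hamsters. The groups overlapped, and the log2 difference was -0.13 (SE 0.0682, adjusted p = 0.816), with -0.15 in series A and -0.10 in series B. Cacna1f, the channel of photoreceptor terminals, ran from 4.18 to 4.58 with a median of 4.25 in stimulated Syrian hamsters and from 4.01 to 4.33 with a median of 4.18 in stimulated GASH/Sal hamsters. The overlap was wide. Their log2 difference of -0.13 (SE 0.0765, adjusted p = 0.901) was -0.08 without stimulated Syrian 4, -0.05 in series A and -0.22 in series B. The channels of central neurons, Cacna1c and Cacna1d, differed by -0.11 to 0.08 in the 4 comparisons between groups. The value of -0.11 was that of Cacna1c for sound in Syrian hamsters (adjusted p = 0.811), the largest in size of the family in that comparison.

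The Cav2 family had the narrowest range of differences among the pore-forming families. Cacna1a, the P/Q-type channel of fast synapses, had mean log2 signals of 6.77 ± 0.0917, 6.69 ± 0.245, 6.72 ± 0.263 and 6.74 ± 0.339 (SD, n = 6) in naïve Syrian, stimulated Syrian, naïve GASH/Sal and stimulated GASH/Sal hamsters. Its log2 differences were 0.02 and -0.07 for sound in GASH/Sal and Syrian hamsters and -0.05 and 0.04 for strain. Cacna1b, the N-type channel, and Cacna1e, the R-type channel, differed by -0.10 to 0.09. Over the 3 genes and 4 comparisons the 95% intervals ran from -0.26 to 0.23.

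Of the Cav3 family, the T-type channels that support burst firing, Cacna1h had the third smallest p for sound in Syrian hamsters. Its log2 signal had a lowest value of 5.81, a median of 5.88 and a highest value of 6.12 in naïve and 5.60, 5.75 and 5.93 in stimulated Syrian hamsters. The groups overlapped. The log2 difference was -0.16 (SE 0.0757, unadjusted p = 0.0441, adjusted p = 0.744), with -0.19 in series A and -0.13 in series B. In GASH/Sal hamsters it was -0.10, and averaged over strains -0.13 (unadjusted p = 0.0241, adjusted p = 0.612). Cacna1g lay at 6.08 ± 0.175, 5.89 ± 0.207, 6.05 ± 0.321 and 5.99 ± 0.257 in the 4 groups in the order given above, and differed with sound by -0.19 in Syrian and -0.06 in GASH/Sal hamsters. Cacna1i, found mainly in the brain, differed by 0.05 or less.

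The 3 sodium channel beta subunits, which anchor the pore-forming subunit and act in adhesion, were above 0 for sound in both strains. Scn3b had a lowest log2 signal of 5.06, a median of 5.12 and a highest of 5.20 in naïve Syrian hamsters, and 5.23, 5.31 and 5.49 in stimulated Syrian hamsters. All stimulated arrays lay above all naïve arrays. Scn3b differed by 0.20 on the log2 scale (SE 0.0886), which is 1.15-fold (unadjusted p = 0.0299, adjusted p = 0.740), with 0.17 in series A and 0.24 in series B. In GASH/Sal hamsters the log2 difference of Scn3b was 0.07 (95% interval -0.12 to 0.25), and the difference between the strains in this response was -0.14 (unadjusted p = 0.283). Scn2b had a lowest log2 signal of 4.92, a median of 5.17 and a highest of 5.64 in naïve GASH/Sal hamsters, and 5.15, 5.28 and 5.43 in stimulated GASH/Sal hamsters. The stimulated arrays lay within the naïve range. Its log2 difference of 0.12 (SE 0.0830, adjusted p = 0.999) was 0.20 without naïve GASH/Sal 6, 0.22 in series A and 0.02 in series B. Scn4b, the subunit linked to resurgent current, lay at 4.87 ± 0.136, 4.96 ± 0.148, 4.87 ± 0.1305 and 4.89 ± 0.120 in the 4 groups.

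The alpha2delta subunits carry calcium channels to the membrane, and Cacna2d1 and Cacna2d2 bind gabapentin. Cacna2d1 lay at 4.78 ± 0.0864, 4.88 ± 0.246, 4.90 ± 0.243 and 4.94 ± 0.0922, and Cacna2d2 at 6.66 ± 0.120, 6.67 ± 0.111, 6.75 ± 0.418 and 6.73 ± 0.219 in the 4 groups (SD, n = 6). Over the 4 genes, differences ran from -0.11 to 0.11 in the comparisons between groups. Calcium channel beta subunits bind the pore-forming subunit from inside the cell. Cacnb4 had a lowest log2 signal of 5.36, a median of 6.16 and a highest of 6.35 in naïve GASH/Sal hamsters, and 6.05, 6.22 and 6.27 in stimulated GASH/Sal hamsters. Its log2 difference of 0.17 (SE 0.114, adjusted p = 0.999) was 0.03 without naïve GASH/Sal 6, the array at 5.36. It was 0.08 in series A and 0.26 in series B. Cacnb2 was lower in GASH/Sal hamsters by 0.17 in naïve and 0.15 in stimulated animals, and by 0.16 on average (SE 0.0661, unadjusted p = 0.0204, adjusted p = 0.601), the smallest unadjusted p of a member for strain averaged over sound. Cacnb1 differed by -0.08 to 0.10.

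Of the 7 gamma subunits, Cacng7, which modulates AMPA receptors, had the smallest p for sound in GASH/Sal hamsters. Its log2 signal had a lowest value of 5.88, a median of 6.06 and a highest value of 7.25 in naïve GASH/Sal hamsters, and 5.61, 5.88 and 6.60 in stimulated GASH/Sal hamsters. The groups overlapped. Cacng7 differed by -0.31 on the log2 scale (SE 0.135), or 1.24-fold lower (unadjusted p = 0.0314, adjusted p = 0.999), but -0.16 without naïve GASH/Sal 6, the array at 7.25, and -0.23 in series A against -0.38 in series B. In Syrian hamsters it was -0.07. Cacng2, whose loss causes absence seizures in the stargazer mouse, lay at 7.21 ± 0.269, 7.30 ± 0.0703, 7.36 ± 0.370 and 7.33 ± 0.230 in the 4 groups. Its other, dimmer probe set had the opposite sign in each of the 4 comparisons between groups. For strain in naïve animals it gave -0.12, against 0.16 from the brighter one. For sound in GASH/Sal hamsters 6 of the 7 gamma subunits were below 0 and 1 above, with a median of -0.04. In the comparisons other than sound in Syrian hamsters 0 of 35 members did not overlap, beside 0.226% of all genes for sound in GASH/Sal hamsters, 0.271% for strain in naïve animals and 0.251% for strain in stimulated animals.

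The channel genes differed between the 2 label series, a comparison added after the data were seen. Of the 35 members, 12 were called between the series beside 6.89% of all genes, and all 12 were higher in series B beside 5.87% of all genes called in that direction. As a share this was 34.3% of the members, and 12 of the 23 members at or above the median signal, or 52.2%, beside 12.0% of all genes at or above it. The count was 4 after quantile normalisation and 10 after median centring of the arrays. It was 8 without the 2 arrays that stood apart and 9 to 13 when each array was left out in turn. Naïve GASH/Sal 6, a series B array and 1 of these 2, had the highest signal of its group for each of the 12 members called. The number called over all genes moved as well. It was 1374 in the main fit, and 927 to 1714 over 8 alternative settings, which gave 4 to 14 members. With each array left out in turn it was 1091 to 1502. Each series held 3 arrays of each group, so the strain and sound differences above were estimated within series.

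Of the gamma subunits 5 of 7 were called, and of the Cav2 and Cav3 families 2 of 3 genes each. These families lay wholly above the median signal, where 12.0% of all genes were called. No member below the median signal was called, so that family and signal were not told apart. Cacng7 ran from 5.61 to 6.27 with a median of 5.93 in series A and from 6.005 to 7.25 with a median of 6.35 in series B, a log2 difference of 0.50 (SE 0.0957, adjusted p = 0.00116). Cacng2 ran from 6.74 to 7.32 in series A and from 7.31 to 7.78 in series B, with a slight overlap, and differed by 0.38 (SE 0.0641, adjusted p = 0.000332). Cacng3, Cacng8 and Cacng4 differed by 0.33, 0.22 and 0.23 with adjusted p of 0.00545, 0.0131 and 0.0413. Of the pore-forming genes, Cacna1a ran from 6.37 to 6.74 in series A and from 6.69 to 7.31 in series B, with a difference of 0.36 (SE 0.0640, adjusted p = 0.000488). All 12 series B arrays of Cacna1a, Cacng2 and Cacng7 lay above the series A mean. Cacna1b, Cacna1g, Cacna1i and Scn8a differed by 0.19, 0.28, 0.23 and 0.19. Among the other auxiliary genes, Cacna2d2 differed by 0.29 and Scn2b by 0.20. No Cav1 gene and no calcium channel beta subunit was called, and Scn3a was lower in series B by 0.23 with an adjusted p of 0.0790.

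**Figure D4:**
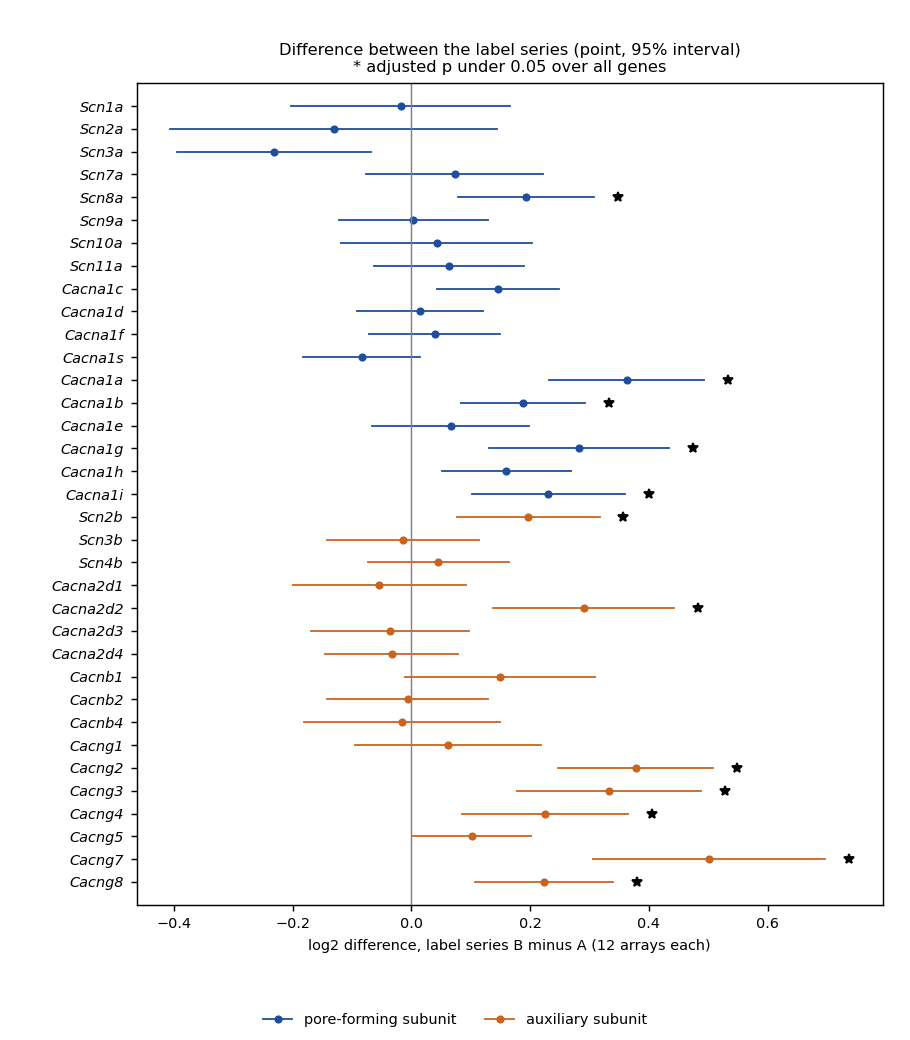
Log2 difference of each of the 35 channel genes between label series B and A (12 arrays each), with its 95% interval, blue for pore-forming and orange for auxiliary subunits and a star where the adjusted p was under 0.05. The 12 starred genes all lie above 0, from 0.19 for Cacna1b to 0.50 for Cacng7. They include 5 of 7 gamma subunits and 2 of 3 genes each of the Cav2 and Cav3 families. Of all genes at or above the median signal, 12.0% were called.

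Markers of cell types differed between the series as well. Of 8 neuronal markers, 3 were called, Syt1, Rbfox3 and Tubb3, at 0.23, 0.34 and 0.35 higher in series B, while Snap25 differed by -0.24 (adjusted p = 0.0585). The mean neuronal signal ran from 7.73 to 7.98 in series A and from 7.73 to 8.15 in series B. Of 5 oligodendrocyte markers 2 were called, and 1 each of 4 inhibitory, 6 astrocyte, 4 vessel and 9 cerebellar markers, all higher in series B. The share called was 6.89% of all genes and 12.0% of genes at or above the median signal. None was called among the markers of microglia, oligodendrocyte precursors, excitatory neurons, muscle, choroid plexus, photoreceptors or the IC and midbrain. Their part in the series difference of the channels was not tested.

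Proteins that bind, place or regulate these channels were listed as 38 further genes, of which 35 had a value. None of these partners was called in any of the 7 comparisons, and at an unadjusted p under 0.05 there were 1, 1, 2 and 2 of 35 for sound in GASH/Sal, sound in Syrian, strain in naïve and strain in stimulated animals, beside 4.46%, 6.64%, 6.02% and 5.42% of all genes. Fgf12, an intracellular partner of sodium channels, had a log2 difference of 0.32 (SE 0.152, adjusted p = 0.999) for sound in GASH/Sal hamsters. Rimbp2, which holds calcium channels at release sites, had -0.16 and -0.19 for sound in GASH/Sal and Syrian hamsters. Gem, a small GTPase that inhibits calcium channels and is induced by activity, had 0.17 (SE 0.0829, adjusted p = 0.744) for sound in Syrian hamsters and -0.20 (adjusted p = 0.896) for strain in stimulated animals. Ank3, the scaffold of the axon initial segment, and Cachd1, a relative of the alpha2delta subunits, had 0.15 and 0.18 for strain in naïve animals, and Fgf11 had 0.29 for strain in stimulated animals. Between the label series 8 of these 35 partners were called, all higher in series B, beside 6.89% of all genes called and 5.87% called in that direction. Of all genes at or above the median signal, 12.0% were called.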

How the data were processed

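The authors deposited RMA output as log2 signals of probe sets. RMA corrects background, normalises between arrays and summarises probes. The submitters' processing notes give no version. The table held 35556 probe sets in 24 columns, and 21789 probe sets carried 1 symbol. The brightest probe set was kept per gene, which left 19938 genes. Dim genes were not removed. Arrays give no read depth, so their number limits the precision.

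The main test was limma's moderated test (lmFit and eBayes at their defaults, limma 3.58.1 in R 4.3.3), in 1 fit with the 4 groups and the label series, which left 19 residual degrees of freedom. Two-sided p-values were adjusted over all genes (Benjamini-Hochberg, threshold 0.05). They set a difference against the spread of arrays around the fitted groups and label series, which limma moderates over all genes. Values named in full were those of the 3 members with the smallest p in each comparison between 2 groups, and of fixed genes known for seizures or brain isoforms. Cacnb2, Tfap2b and the members called between label series were named after their values were seen. The fits were tested on simulated data with independent genes and no label series difference. As that setting differs from these arrays, it does not measure how often small differences would be called here. Members, lists and named genes were chosen with earlier results of these data known. Probe set symbols are those of the platform's annotation, and 33 of the 35 were found by symbol in the hamster RefSeq table (BCM_Maur_2.0). Alternatives are listed with their effect in the closing section. No array and no column (0) was left out.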

Additional observations from a re-analysis of the deposited data

Results flagged for a closer look

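In 140 sets of 6 arrays, 1 set for each of 35 genes in each of 4 groups, 11 had a highest or lowest array whose gap to the next exceeded the limit of Dixon's test, where chance gives about 1 in 20, or 7. In 5 of the 11 the array was stimulated Syrian 4, which also stood apart over all genes. These were Scn2a at 9.33 (the others 10.1 to 10.4), Scn4b at 4.68 (others 4.94 to 5.07), Scn2b at 5.62 (others 5.18 to 5.32), Scn7a at 3.46 (others 2.79 to 2.91) and Cacna1f at 4.58 (others 4.18 to 4.31). Naïve GASH/Sal 6 had a Cacnb4 signal of 5.36 (others 5.98 to 6.35). That array was also the highest of its group for each member called between the label series, without exceeding the limit. Stimulated GASH/Sal 3 had Cacna1h at 5.55 (others 5.83 to 5.91) and Scn10a at 4.37 (others 3.99 to 4.09). Cacnb4 was 6.05 in stimulated GASH/Sal 2 (others 6.20 to 6.27), Scn3a was 4.11 in stimulated GASH/Sal 5 (others 4.40 to 4.58) and Cacna2d3 was 4.56 in naïve Syrian 3 (others 4.87 to 4.98).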

How the results depend on the processing

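The number of members called in the 7 comparisons of the study was 0 in all 263 values, over settings and arrays left out. The settings were no label series, each series alone, the groups of a comparison alone, a filter at the median signal, array weights, probe sets averaged per gene or taken singly, arrays centred on their medians or quantile-normalised, a trended and robust eBayes, a 2-fold rule and, chosen after seeing the data, leaving out both arrays that stood apart. Replicate numbers did not pair the arrays: over 36 pairs with the same number the correlation of deviations ran from -0.159 to 0.316, 12 were over 0.1, and 7 of 24 arrays matched best an array of their own number. With the replicate block in place of the label series 0 members were called, and the block changed no call of a member. Counts over all genes moved more. For sound averaged over strains, 1 gene was called, 444 in series A alone, 0 in series B alone, 14 with array weights and 12 without stimulated GASH/Sal 6. For strain in naïve animals, 0 were called, but 18 with array weights, 13 without naïve GASH/Sal 6 and 64 without both arrays that stood apart. For strain averaged over sound, 2 were called, 19 with array weights, 36 without naïve GASH/Sal 6, and 0 with the replicate block. For sound in GASH/Sal and in Syrian hamsters, 0 were called, and 7 and 5 in series A alone. Of the named values, 1 changed sign: Scn11a for strain in stimulated animals, -0.15, was 0.0222 in series A alone. Between the label series 12 members were called, but 4 after quantile normalisation, which called 927 genes instead of 1374, and the cause was not tested.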
